A study of Xenopus laevis with 16 samples.

Results

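Animal caps are explants of the ectoderm around the animal pole of the frog blastula. The caps described here came from Xenopus laevis embryos that had received 16 pg of mRNA for the ligand xWnt8, and they were set against the untreated caps that the labels name as their control, control 3. Members were taken as the transcripts that the authors listed for these caps, with the log2 ratio recomputed as log2((Wnt8 RPKM + 1)/(control 3 RPKM + 1)), where RPKM is the number of reads scaled to transcript length and to the mapped reads of the library. These are 2 of the 16 libraries in the series and 15824 of the 43646 transcripts in its full table. Transcripts whose mean over the pair was under 1 RPKM are not listed, so a transcript close to 0 in control 3 could be listed only through its level in Wnt8 caps.

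All libraries came from Nasco frogs. Injected mRNA was given at early cleavage, and caps were cut at stage 9 and collected at stage 12, after gastrulation had begun. The Wnt8 group has 1 library, and there are 4 libraries of untreated caps (controls 1 to 4) and 3 of caps dissociated into cells (dissociated 1 to 3). Other single libraries used below are caps injected with 16 pg of xWnt8 and 200 pg of Xnr2 mRNA together, with 200 pg of Xnr2, FGF8 or BMP4 mRNA or 400 pg of Chordin or Cerberus mRNA, and dorsal and ventral pieces of embryos cut at stage 10. Control 4 is the labelled control of the Xnr2 and FGF8 caps, control 1 that of the BMP4 and Chordin caps, and control 3 also that of the Cerberus caps. No label ties a replicate to a clutch of its own, and a p-value here measures only how these samples scatter, which may be partly technical.

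Wnt8 belongs to the Wnt ligands that bind Frizzled receptors and LRP5/6 co-receptors, stop the destruction of β-catenin and let it activate transcription with Tcf/Lef factors. Targets include negative feedback genes such as axin2. In the Xenopus embryo zygotic wnt8a is made in ventral and lateral mesoderm during gastrulation, and Wnt signalling is known there for opposing anterior fates and for its part in posterior and neural crest fates.

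Reads recovered from the RPKM values gave a depth of 41785027 for the Wnt8 library, against 46522450 for control 3 and 28721807 to 38530783 for the other controls. Each of the other untreated libraries differed from control 3 by more than Wnt8 did. Taken past 2-fold where the higher of both libraries had 5 RPKM or more, 6.32% of transcripts were higher and 5.71% lower in control 1 than in control 3. In control 2 the shares were 1.96% and 4.59%, and in control 4 they were 2.05% and 2.89%. Pearson's r with the Wnt8 library on log2(RPKM + 1), given only as a description over 14156 transcripts, was 0.9695 for control 3, 0.9323 for control 4, 0.9113 for control 1 and 0.909 for control 2. Control 1 differed most. Its values are given beside many of the transcripts below but not all, so a value left out does not mean that control 1 was level with control 3.

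The transcript of the injected ligand was higher in the library that carries its name. The homeolog wnt8a.L (.L and .S mark the 2 copies of a gene in this allotetraploid frog) had 12.9 RPKM in Wnt8 caps, against 0.463 RPKM in control 3 and 0.107, 0.240 and 0.168 RPKM in controls 1, 2 and 4. The S copy, wnt8a.S, is not among the transcripts listed for the pair, and another of the deposited tables gives 0.855 RPKM in Wnt8 caps and 0.179 RPKM in control 3. The injected xWnt8 mRNA and the embryo's own transcript cannot be told apart in these values, and wnt8a was left out of every count.

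Of the other 15823 transcripts, 156 were past 2-fold higher in Wnt8 caps (0.986%) and 278 past 2-fold lower (1.76%) by the same rule. The median log2 ratio over all of them was 0.01. With 1 library against 1 these counts carry no test. The higher transcripts had a median of 12.4 RPKM in Wnt8 caps and 2.65 RPKM in control 3, and the lower ones 5.10 RPKM in Wnt8 caps and 17.02 RPKM in control 3. Ratios of at least 4-fold were found for 50 of the higher and 57 of the lower transcripts, and log2 ratios spanned -5.47 to 4.68. On this scale the change of transcripts with low RPKM is understated.

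The other controls separated these sets. Of the 156 higher transcripts, 135 lay above every control that lists them, 138 above control 1 and 153 above controls 2 to 4. Of the 278 lower transcripts, 136 lay below every control, 143 below control 1 and 262 below controls 2 to 4. The low side of the comparison was thus often as low or lower in control 1, an untreated library.

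**Figure D1:**
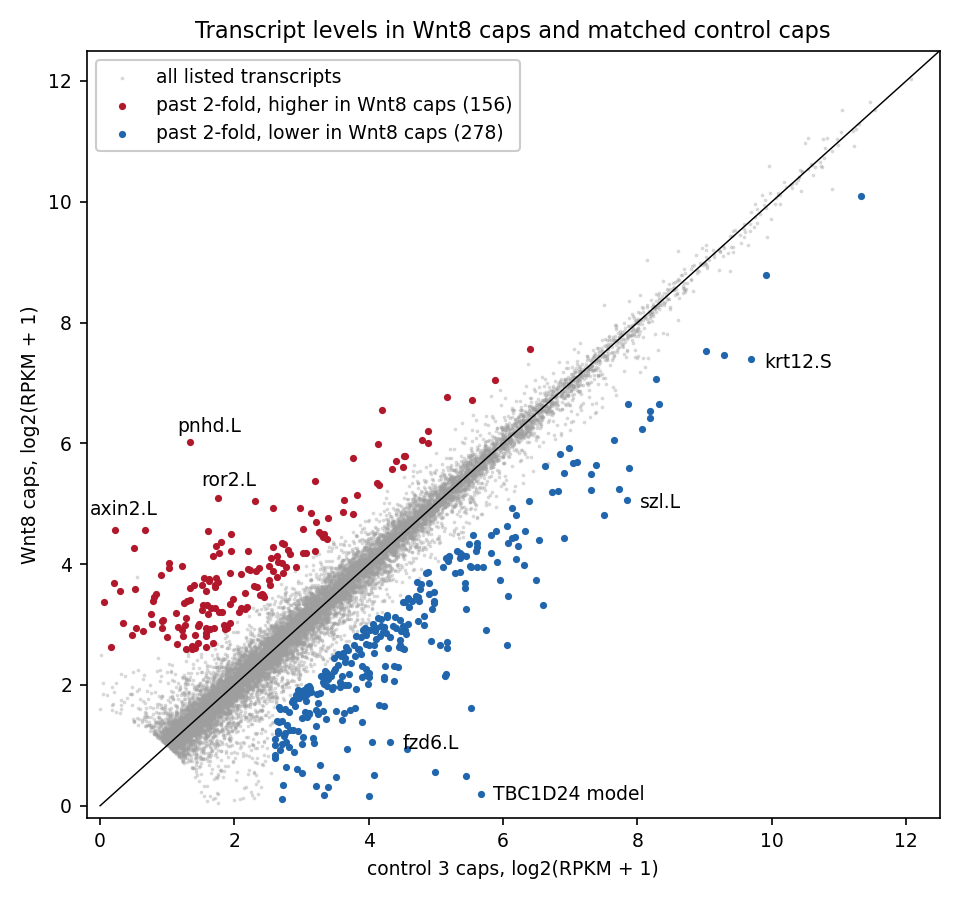
Level of each listed transcript on the log2(RPKM + 1) scale in Wnt8 caps (vertical axis) and control 3 caps (horizontal axis), 1 library each. Red points are the 156 transcripts past 2-fold higher and blue points the 278 past 2-fold lower, by the rule with its 5 RPKM minimum, and the line marks equal levels.

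Across the 4 controls, 11 transcripts rose in Wnt8 caps (0.0695%) and 0 fell (0.00%) in a limma fit on log2(RPKM + 1) at a Benjamini-Hochberg adjusted p below 0.05. At an unadjusted p below 0.05 there were 322. Among the 11 were axin2.L and axin2.S, pnhd.S, sp5.S, hoxd1.L and hoxd1.S, evx1.L, ror2.S, a PAX3 model (Xelaev18027783m) and LOC101731059.L, annotated by the authors with the human symbol TMEM221. All of those named except LOC101731059.L were under 1 RPKM in control 3. They were thus listed only through their level in Wnt8 caps, the library that the fit tests, which favours such calls. The fit took its spread from the controls and the dissociated caps and assumed that the lone Wnt8 library varies as they do. Uniform p-values would put more transcripts below 0.05 than either unadjusted count in this paragraph, so these counts are no sign of further changes. The labels pair each dissociated library with the control of the same number, and with these sets entered as blocks limma called 0 transcripts, with 473 at an unadjusted p below 0.05. Limma with voom weights on the recovered reads called 3 higher and 0 lower.

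Single libraries moved these calls. Without control 1, 15 transcripts were called higher (0.0948%) and 13 lower (0.0822%), without control 2 there were 2 higher, without control 3 there were 8 and without control 4 there was 1, the last 3 with 0 lower. Leaving out dissociated 1, 2 or 3 gave 4, 4 and 3 higher and 0 lower. A call for axin2.L was made in 12 of 15 alternative fits and the pnhd.S call in 10 of 15, and each of the other 9 in 3 to 7 of 14 or 15.

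The best known Wnt targets were among the transcripts with the highest ratios. The feedback inhibitor axin2, a scaffold of the β-catenin destruction complex, had 22.8 RPKM for axin2.L in Wnt8 caps, against 0.166 RPKM in control 3 and 0.0237, 0.0530 and 0.0742 RPKM in controls 1, 2 and 4. No control came near the Wnt8 value. The ratio to control 3 was 138-fold, and the 95% exact binomial interval from recovered reads ran from 98.2 to 199. These intervals hold counting error and nothing else. The rise of axin2.L over all controls was 4.46 ± 0.26 on the log2 scale (SE, limma adjusted p = 0.000822). The S copy read 2.58 RPKM in Wnt8 caps and 0.0694 RPKM in control 3, and rose by 1.75 ± 0.22 (SE, limma adjusted p = 0.0339).

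The zinc finger factor sp5, a direct target that acts as a repressor in Wnt feedback, followed in both copies. For sp5.L the level was 13.1 RPKM in Wnt8 caps, against 0.872 RPKM in control 3 and 1.25, 0.321 and 0.477 RPKM in controls 1, 2 and 4. Its adjusted p over the controls was 0.0558 in the limma fit, so it is given as a ratio, 15.0-fold over control 3 with an interval of 12.2 to 18.7. For sp5.S the level was 3.10 RPKM in Wnt8 caps, against 0.0264 RPKM in control 3, 0.0142 RPKM in control 1 and 0 in controls 2 and 4. That copy was called, at 2.02 ± 0.21 on the log2 scale (SE, limma adjusted p = 0.0251). The related sp5l.L stood at 54.4 RPKM in Wnt8 caps, against 22.3 RPKM in control 3 and 32.7, 11.8 and 14.7 RPKM in controls 1, 2 and 4.

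Of 42 transcripts of Wnt target and feedback genes in the full table, 28 are listed for this pair, 9 of them past 2-fold higher and 0 lower, beside 0.986% and 1.76% of all transcripts. Their median log2 ratio was 0.93, against 0.01 over all listed, and 3 of the 28 passed the limma test. The other members past 2-fold were fzd10.L and fzd10.S, a FZD7 model, both GBX2 models and sp5l.S. Members under 1 RPKM in control 3, such as axin2 and sp5, were listed only through their Wnt8 level, which favours high ratios. The FZD7 model (Xelaev18044942m) had 72.6 RPKM in Wnt8 caps, against 28.4 RPKM in control 3 but 109 RPKM in control 1.

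Not all feedback genes followed. The Wnt deacylase gene notum had 7.21 RPKM for notum.L in Wnt8 caps and 7.49 RPKM in control 3, and notum.S 3.09 RPKM in Wnt8 caps and 1.40 RPKM in control 3. The ubiquitin ligases that remove Frizzled receptors, rnf43.S and both znrf3 copies, had log2 ratios of 0.04 to 0.32, and the cell cycle gene ccnd1 0.49 for its L and -0.24 for its S copy. The Tcf/Lef factor lef1, itself a target, lay above every control in both copies but was not past 2-fold by the rule. lef1.L had 16.8 RPKM in Wnt8 caps, against 8.31 RPKM in control 3 and 2.19, 7.05 and 7.12 RPKM in controls 1, 2 and 4. That is just under 2-fold on the scale used, at a log2 ratio of 0.93. lef1.S had 2.81 RPKM in Wnt8 caps and 0.486 RPKM in control 3, a log2 ratio of 1.36, under the minimum of 5 RPKM.

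The largest log2 ratio of RPKM + 1 belonged to pinhead, pnhd, which codes for a secreted protein and was in none of the gene lists. pnhd.L had 63.8 RPKM in Wnt8 caps, against 1.53 RPKM in control 3 and 0.226, 0.578 and 2.15 RPKM in controls 1, 2 and 4, a ratio of 41.8-fold over control 3 with an interval of 35.6 to 49.4. Its limma adjusted p was 0.0558. pnhd.S, at 10.7 RPKM in Wnt8 caps and 0.225 RPKM in control 3, rose by 3.40 ± 0.28 (log2, SE, limma adjusted p = 0.00709). Both copies were far above all controls.

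Several leading transcripts lay outside the lists. A CELF3 model (Xelaev18042973m), for an RNA-binding protein of neural tissue, had 15.1 RPKM in Wnt8 caps, against 1.05 RPKM in control 3 and 0.0591, 1.86 and 2.05 RPKM in controls 1, 2 and 4. A PADI1 model (Xelaev18036379m), for a peptidylarginine deiminase, had 22.5 RPKM in Wnt8 caps and 2.04 RPKM in control 3, and LOC101731059.L 14.3 RPKM in Wnt8 caps and 1.04 RPKM in control 3. All 3 were above every control, and LOC101731059.L rose by 3.02 ± 0.38 (log2, SE, limma adjusted p = 0.0387). Further transcripts, chosen after their values were seen, were both copies of the zinc finger gene znf703. znf703.S had 19.7 RPKM in Wnt8 caps and 2.49 RPKM in control 3, and znf703.L 16.5 RPKM in Wnt8 caps and 2.20 RPKM in control 3.

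At the other end, the TBC1D24 model (LOC100493941-like.L) had the lowest ratio, with 0.144 RPKM in Wnt8 caps, against 49.9 RPKM in control 3 and 0.324, 164 and 28.6 RPKM in controls 1, 2 and 4. The desmosome gene pkp3.S had 2.086 RPKM in Wnt8 caps, against 45.0 RPKM in control 3 and 5.17, 48.1 and 16.2 RPKM in controls 1, 2 and 4. Its L copy stood the other way, with 31.3 RPKM in Wnt8 caps and 17.7 RPKM in control 3, a log2 ratio of 0.79. The transcription factor gene dmrt2.L had 0.116 RPKM in Wnt8 caps, against 15.0 RPKM in control 3 and 1.11, 3.87 and 2.36 RPKM in controls 1, 2 and 4. For the TBC1D24 model, pkp3.S and dmrt2.L, control 1 was the control nearest to Wnt8. None of the 12 transcripts with the lowest ratios passed the limma test with all controls.

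**Figure D2:**
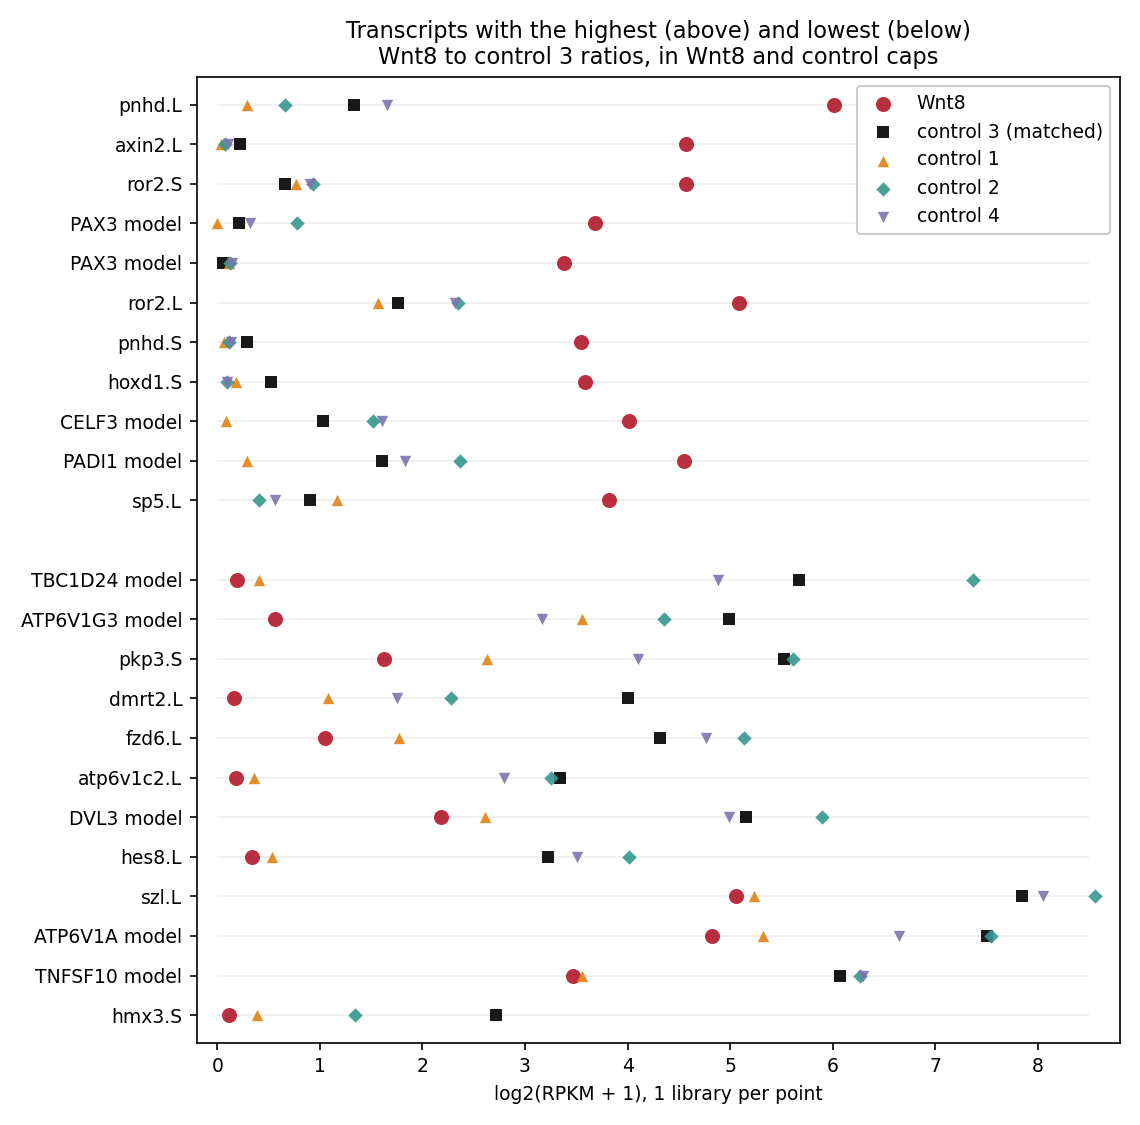
Level in Wnt8 caps and in controls 1 to 4, as log2(RPKM + 1), of 11 of the 12 transcripts with the highest and the 12 with the lowest Wnt8 to control 3 ratio among those above or below every control that lists them; each point is 1 library. The upper 11 show the Wnt8 library alone on the right with the controls together on the left, while in the lower 12 control 1 (triangles) often sits beside the Wnt8 library.

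Wnt receptors stood on both sides of control 3. The shares over all transcripts were 0.986% past 2-fold higher and 1.76% lower. Of 29 listed transcripts of receptors and co-receptors, 7 were past 2-fold higher and 5 lower, and ror2.S alone passed the limma test. The tyrosine kinase receptor ror2, which binds Wnt5a and serves signalling that does not use β-catenin, had 22.8 RPKM for ror2.S in Wnt8 caps, against 0.583 RPKM in control 3 and 0.705, 0.908 and 0.869 RPKM in controls 1, 2 and 4. It rose by 3.76 ± 0.46 (log2, SE, limma adjusted p = 0.0339). ror2.L had 33.0 RPKM in Wnt8 caps and 2.39 RPKM in control 3, 13.8-fold higher with an interval of 12.6 to 15.2.

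Among the Frizzled receptors, fzd10.L had 32.1 RPKM in Wnt8 caps, against 3.96 RPKM in control 3 and 3.57, 5.47 and 1.81 RPKM in controls 1, 2 and 4. fzd10.S had 26.1 RPKM in Wnt8 caps, against 9.55 RPKM in control 3 and 1.18, 20.3 and 5.95 RPKM in controls 1, 2 and 4. fzd2.L had 17.8 RPKM in Wnt8 caps and 5.98 RPKM in control 3. These 3 lay above every control. So did kremen2.L, for a co-receptor of the antagonist Dkk, at 8.43 RPKM in Wnt8 caps and 1.88 RPKM in control 3.

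Other Frizzled genes stood lower. All 3 listed fzd8 transcripts were past 2-fold lower, and fzd8.S had 3.39 RPKM in Wnt8 caps, against 17.6 RPKM in control 3 and 13.3, 12.9 and 15.8 RPKM in controls 1, 2 and 4. The Wnt8 value lay below every control. fzd6.L had 1.07 RPKM in Wnt8 caps, against 19.0 RPKM in control 3 and 2.42, 34.3 and 26.2 RPKM in controls 1, 2 and 4, again below every control, though control 1 was nearer to Wnt8 than to the rest. Transcripts of the co-receptors lrp5 and lrp6 and of the 4 FZD4 models had log2 ratios between -0.45 and 0.45.

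Transcripts of the cytoplasmic pathway mostly stood near their control level. Of 33 listed transcripts, 0 were past 2-fold higher and 3 lower, beside 0.986% and 1.76% of all transcripts. The median log2 ratio was -0.01. The β-catenin models had 331 and 359 RPKM in Wnt8 caps, against 318 and 409 RPKM in control 3. The 3 lower transcripts were both copies of tcf7l1, a Tcf factor that represses targets when β-catenin is absent, and a model of the Dishevelled gene DVL3. tcf7l1.L had 14.6 RPKM in Wnt8 caps, against 44.6 RPKM in control 3 and 31.8, 57.7 and 57.7 RPKM in controls 1, 2 and 4. tcf7l1.S had 13.6 RPKM in Wnt8 caps, against 40.1 RPKM in control 3 and 46.2, 50.2 and 57.2 RPKM in controls 1, 2 and 4. Both copies were below every control, and neither passed the limma test (adjusted p = 0.652 and 0.149).

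Secreted antagonists also divided. Bighead, the Wnt antagonist of the Spemann organizer that gives the series its title, had 10.4 RPKM for its L copy (LOC100494211.L) in Wnt8 caps, against 0.787 RPKM in control 3 and 2.22, 0.172 and 1.03 RPKM in controls 1, 2 and 4. The ratio to control 3 was 13.2-fold with an interval of 10.8 to 16.3, and the limma adjusted p over all controls was 0.288. LOC100494211.L was called higher in the limma fit without control 1, the control in which it was highest. Its S copy (LOC100494211.S) had 3.51 RPKM in Wnt8 caps and 0.237 RPKM in control 3. Both copies were under 1 RPKM in control 3, so they were listed only through their Wnt8 level. sizzled, szl, is an Sfrp-related inhibitor of the proteases that cut Chordin and a target of BMP, and szl.L had 32.4 RPKM in Wnt8 caps, against 230 RPKM in control 3 and 36.7, 377 and 265 RPKM in controls 1, 2 and 4. Among the controls, control 1 alone was close to the Wnt8 value. In all, 2 of 11 listed antagonist transcripts were past 2-fold higher and 2 lower, beside 0.986% and 1.76% of all transcripts.

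Few other Wnt ligand genes reached the level needed to be listed, 5 of 55 transcripts. Among them wnt11b.L was past 2-fold higher, with 7.14 RPKM in Wnt8 caps, against 2.83 RPKM in control 3 and 6.94, 2.58 and 3.86 RPKM in controls 1, 2 and 4.

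Genes of the posterior axis had the highest median of the lists. However, members under 1 RPKM in control 3, such as hoxd1 and evx1.L, were listed only through their Wnt8 level. That rule favours a high median and many calls. Of 13 listed transcripts, out of 95 in the full table, 8 were past 2-fold higher and 0 lower, beside 0.986% and 1.76% of all transcripts. The median log2 ratio was 2.10. All 8 lay above every control, and 4 transcripts passed the limma test. The Hox gene hoxd1 had 11.0 RPKM for hoxd1.S in Wnt8 caps, against 0.439 RPKM in control 3 and 0.133, 0.0662 and 0.0696 RPKM in controls 1, 2 and 4. It rose by 3.36 ± 0.38 (log2, SE, limma adjusted p = 0.0330). hoxd1.L had 9.46 RPKM in Wnt8 caps and 0.722 RPKM in control 3 and rose by 2.88 ± 0.36 (log2, SE, limma adjusted p = 0.0339).

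The even-skipped homolog evx1.L had 7.44 RPKM in Wnt8 caps, against 0.914 RPKM in control 3 and 0.200, 0.288 and 0.303 RPKM in controls 1, 2 and 4. It rose by 2.59 ± 0.31 on the log2 scale (SE, limma adjusted p = 0.0330).

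Of the Cdx factors, which activate Hox genes, both cdx4 copies and cdx2.L were higher but did not pass the test. cdx4.S had 17.1 RPKM in Wnt8 caps, against 2.41 RPKM in control 3 and 0.182, 0.136 and 0.398 RPKM in controls 1, 2 and 4 (limma adjusted p = 0.133). cdx4.L had 12.2 RPKM in Wnt8 caps and 2.07 RPKM in control 3, and cdx2.L 8.08 RPKM in Wnt8 caps and 2.05 RPKM in control 3. Control 3 itself was the highest of the controls for these 3 transcripts. cdx1.S, also listed, was not higher, with 1.67 RPKM in Wnt8 caps and 1.94 RPKM in control 3. The GBX2 models, for a homeobox factor posterior to Otx2, had 6.67 and 7.02 RPKM in Wnt8 caps, against 0.443 and 0.702 RPKM in control 3. The retinoic acid hydroxylase cyp26a1, also on the list, had log2 ratios of -0.68 and -0.38.

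Some anterior genes lay on the other side. Of 12 listed transcripts of anterior neural and cement gland genes, 0 were past 2-fold higher and 3 lower, beside 0.986% and 1.76% of all. The median log2 ratio of the list was -0.46. An OTX2 model (Xelaev18039840m), for the head homeobox factor, had 5.09 RPKM in Wnt8 caps, against 21.6 RPKM in control 3 and 44.1, 7.40 and 17.1 RPKM in controls 1, 2 and 4. otx1.L had 3.56 RPKM in Wnt8 caps, against 12.0 RPKM in control 3 and 57.6, 9.56 and 8.23 RPKM in controls 1, 2 and 4. Both were below every control. The cement gland gene agr2.S had 2.13 RPKM in Wnt8 caps, against 17.7 RPKM in control 3 and 76.4 and 42.7 RPKM in controls 2 and 4, but control 1 was lower still, at 0.470 RPKM. The second OTX2 model (Xelaev18041108m) had 7.91 RPKM in Wnt8 caps and 9.52 RPKM in control 3. Both crx copies lay below every control, with log2 ratios of -0.85 for crx.L and -0.32 for crx.S. Others stood above control 3, with log2 ratios of 0.68 for lhx5.S and 0.27 for lhx5.L, for a LIM homeobox factor of the forebrain, and 0.24 for the eye field gene rax.L. However, lhx5.S had 21.4 RPKM in Wnt8 caps, against 40.7 and 23.1 RPKM in controls 1 and 4. lhx5.L had 25.3 RPKM in Wnt8 caps and 55.3 RPKM in control 1. None of the 12 passed the limma test.

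Genes of the neural plate border and the neural crest also had high ratios. Of 18 listed transcripts 7 were past 2-fold higher and 0 lower, beside 0.986% and 1.76% of all transcripts. The median log2 ratio was 0.76. Members under 1 RPKM in control 3, such as the PAX3 models, were listed only through their Wnt8 level. The paired-box factor Pax3, an early border specifier, had 2 models. Xelaev18027783m had 9.41 RPKM in Wnt8 caps, against 0.0364 RPKM in control 3 and 0.0785, 0.0878 and 0.108 RPKM in controls 1, 2 and 4, and rose by 3.27 ± 0.39 (log2, SE, limma adjusted p = 0.0330). Xelaev18029860m had 11.9 RPKM in Wnt8 caps, against 0.157 RPKM in control 3 and 0, 0.715 and 0.245 RPKM in controls 1, 2 and 4 (limma adjusted p = 0.0792).

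The homeobox factor msx2, a border gene that also responds to BMP, had 29.6 RPKM for msx2.L in Wnt8 caps, against 4.93 RPKM in control 3 and 1.87, 15.9 and 8.83 RPKM in controls 1, 2 and 4. msx2.S had 11.6 RPKM in Wnt8 caps and 1.63 RPKM in control 3, with 1.45 to 1.92 RPKM in the other controls. Both copies lay above every control. The later crest gene sox9.S was on the low side, with 1.00 RPKM in Wnt8 caps and 3.83 RPKM in control 3, under the minimum of 5 RPKM.

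The gene zic1, for a zinc finger factor of the early neural plate and border, was high in the untreated control 1 as well as in Wnt8 caps. zic1.S had 17.7 RPKM in Wnt8 caps, against 2.86 RPKM in control 3 and 26.3, 2.87 and 4.85 RPKM in controls 1, 2 and 4.

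The pan-neural list as a whole had 6 of 24 listed transcripts past 2-fold higher and 0 lower, beside 0.986% and 1.76% of all. Its median log2 ratio was 0.80. The neural SoxB1 genes had log2 ratios of 0.36 for sox2.1 and 0.57 and 0.66 for the SOX3 models, and the β-tubulin gene tubb2b 0.03 and 0.08. Genes of midbrain and hindbrain had 0 of 4 past 2-fold in either direction.

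**Figure D3:**
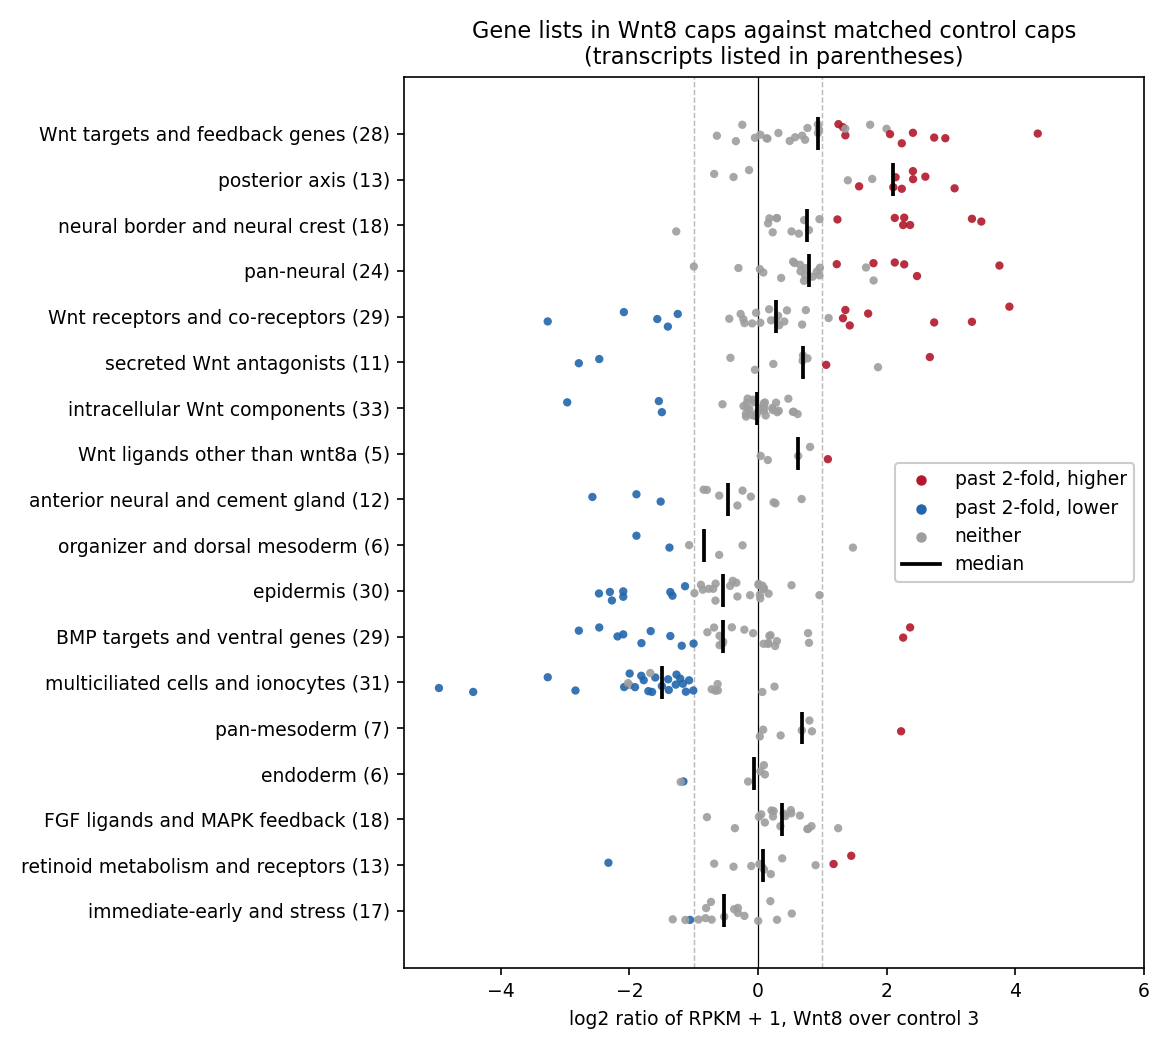
Log2 ratio of RPKM + 1, Wnt8 over control 3, for every listed transcript of 18 gene lists, with the number listed in parentheses; dashed lines mark 2-fold, black bars the median of each list. Posterior, Wnt target and border genes lie to the right (medians 2.10, 0.93 and 0.76) and genes of multiciliated cells and ionocytes to the left (median -1.50). Members under 1 RPKM in control 3 were listed only through their Wnt8 level, which favours high medians.

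Genes of the specialised cells of the larval skin were the lowest group against control 3. Multiciliated cells drive fluid over the epidermis and ionocytes pump ions across it. Of 31 listed transcripts of these cells, 0 were past 2-fold higher and 22 lower, beside 0.986% and 1.76% of all transcripts. The median log2 ratio of the list was -1.50. In bulk RNA, fewer cells of a type and less RNA per cell cannot be told apart. The ciliogenesis master factor foxj1 had 44.7 RPKM for foxj1.S in Wnt8 caps, against 119 RPKM in control 3 and 5.605, 188 and 125 RPKM in controls 1, 2 and 4. The ionocyte factor foxi1.S had 65.1 RPKM in Wnt8 caps, against 199 RPKM in control 3 and 48.5, 64.2 and 137 RPKM in controls 1, 2 and 4. Control 2 was thus also just below Wnt8 for foxi1.S. Its L copy had 224 RPKM in Wnt8 caps and 346 RPKM in control 3, a log2 ratio of -0.62. For foxj1.S and foxi1.S, control 1 was below Wnt8.

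That held for most of the list. Only 4 of the 22 lower transcripts were below every control. The mean of log2(RPKM + 1) over 30 transcripts with values in every control was 3.60 in Wnt8 caps, against 5.22 in control 3 and 2.42, 5.84 and 4.64 in controls 1, 2 and 4. Against control 1 in place of control 3 the median log2 ratio of the list was 0.53, with the sign turned. Wnt8 caps thus had lower levels than 3 of the 4 controls, and how much of this is the variation of untreated caps was not tested.

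The 4 below every control included subunits of the proton pump of ionocytes. The ATP6V1G3 model (Xelaev18023455m) had 0.473 RPKM in Wnt8 caps, against 30.7 RPKM in control 3 and 10.7, 19.4 and 8.001 RPKM in controls 1, 2 and 4. atp6v0d2.L had 0.862 RPKM in Wnt8 caps, against 6.43 RPKM in control 3 and 1.13, 4.71 and 1.98 RPKM in controls 1, 2 and 4. The other 2 were the carbonic anhydrase gene ca12.L and myb.S, a transcription factor of multiciliated cells, with 6.89 and 7.68 RPKM in Wnt8 caps and 19.6 and 20.1 RPKM in control 3. Outside the list, the pump subunits atp6v1c2.L and an ATP6V1A model had the same order. atp6v1c2.L had 0.136 RPKM in Wnt8 caps, against 9.11 RPKM in control 3 and 0.278, 8.52 and 5.95 RPKM in controls 1, 2 and 4.

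Without control 1 the limma fit called 13 of all transcripts lower (0.0822%), 2 of them among the 31 listed transcripts of these cells. The first was the chloride-iodide-bicarbonate exchanger model annotated SLC26A4 (LOC100145611.L), with 0.406 RPKM in Wnt8 caps, against 42.8 RPKM in control 3 and 0.295, 16.1 and 15.0 RPKM in controls 1, 2 and 4. The other was the UBP1 model (Xelaev18043178m), for a factor of ionocytes in Xenopus, which had 9.02 RPKM in Wnt8 caps, against 95.7 RPKM in control 3 and 4.09, 65.6 and 61.7 RPKM in controls 1, 2 and 4. The others called were fzd6.L, atp6v1c2.L, both hes8 copies, znf534.L, isl1.S, the models annotated TBC1D24, MTUS1, TBX3 and BMP7, and Xelaev18036325m, which has no symbol. In 12 of the 13, control 1 lay closer to the Wnt8 level than to the other controls or below it. The exception was the BMP7 model (Xelaev18018155m), for a BMP ligand, with 99.3 RPKM in Wnt8 caps, against 318 RPKM in control 3 and 216, 461 and 432 RPKM in controls 1, 2 and 4. None of the transcripts called lower without control 1 was called in the fit with all controls. Control 1 levels close to those of Wnt8 caps therefore follow partly from that selection.

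General epidermal genes had a weaker shift of the same sign. Of 30 listed transcripts 8 were past 2-fold lower and 0 higher, beside 1.76% and 0.986% of all transcripts. The median log2 ratio was -0.55. None of the 8 lay below every control. The larval keratin gene krt12.S had 167 RPKM in Wnt8 caps, against 829 RPKM in control 3 and 56.2, 1773 and 659 RPKM in controls 1, 2 and 4. The epithelial adhesion gene epcam.L stayed level, at 292 RPKM in Wnt8 caps and 286 RPKM in control 3, and the ITLN2 models, for an intelectin of skin secretory cells, had log2 ratios of 0.07 to 0.17.

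BMP targets, which overlap with the epidermal list, had 9 of 29 listed transcripts past 2-fold lower and 2 higher. Over all transcripts the shares were 1.76% and 0.986%. The median log2 ratio of the list was -0.54. Only 2 of the 9 lower transcripts lay below every control. The 2 higher were the msx2 copies. The general targets bambi, gata2 and id3 had log2 ratios of -0.68 to 0.29, within 2-fold. The lower ones, besides szl and the BMP7 model, were dlx3, the GATA3 models and id4. dlx3.L, for an epidermal homeobox factor, had 16.0 RPKM in Wnt8 caps, against 71.8 RPKM in control 3 and 3.81, 101 and 82.9 RPKM in controls 1, 2 and 4.

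**Figure D4:**
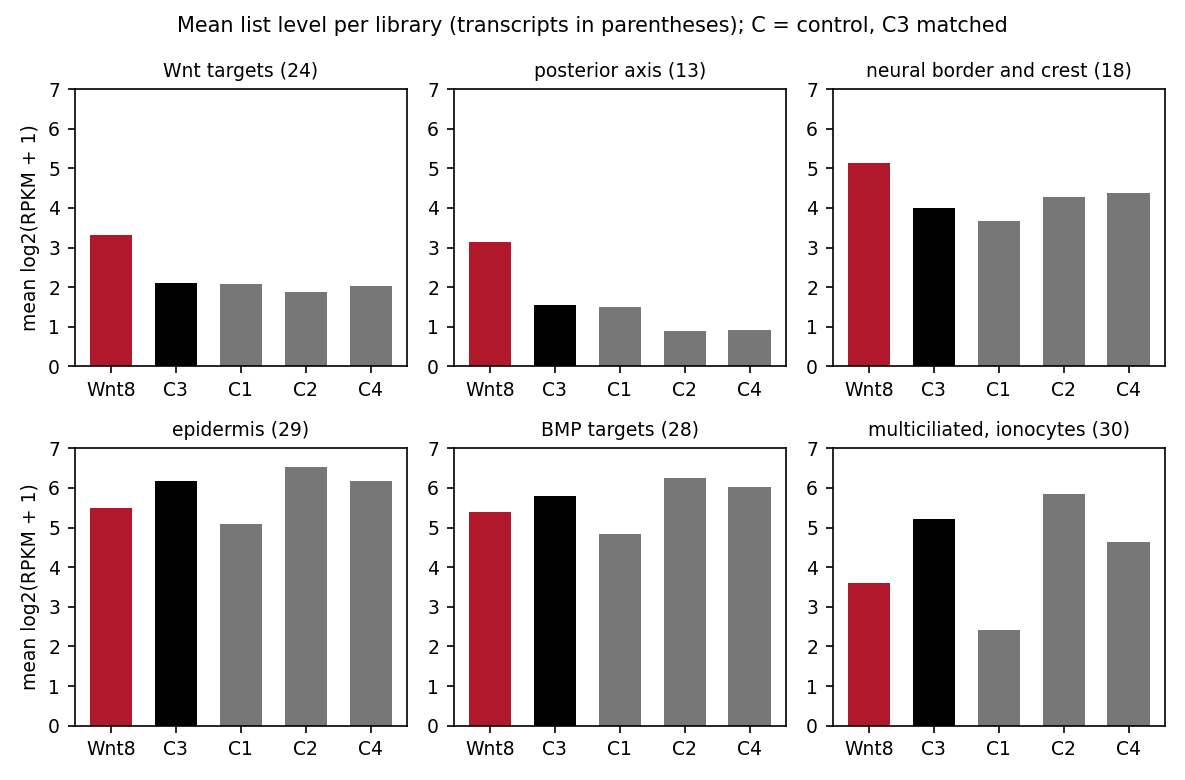
Mean log2(RPKM + 1) of 6 gene lists in Wnt8 caps (red), control 3 (black) and controls 1, 2 and 4 (grey), over the transcripts with values in every control (number in parentheses). Wnt targets, posterior genes and border genes were higher in Wnt8 caps than in every control, whereas the epidermal, BMP target and multiciliated or ionocyte lists lay between control 1 and the other controls. Members under 1 RPKM in control 3 were listed only through their Wnt8 level, which favours a higher mean in Wnt8 caps. Both GBX2 models are in the Wnt target and the posterior list.

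Few markers of mesoderm and endoderm, which an untreated animal cap should lack, were listed. Of 7 listed transcripts of mesoderm markers 1 was past 2-fold higher and 0 lower, beside 0.986% and 1.76% of all transcripts. This was foxf1.L, for a factor of lateral plate mesoderm, with 12.6 RPKM in Wnt8 caps, against 1.92 RPKM in control 3 and 0.0470, 1.28 and 2.85 RPKM in controls 1, 2 and 4. The mean log2(RPKM + 1) over the 7 was 3.20 in Wnt8 caps, against 2.49 in control 3 and 1.57, 1.06 and 2.13 in controls 1, 2 and 4. Of 36 mesoderm transcripts in the full table the other 29 were not listed for this pair, among them t.L and t.S, the copies of the mesoderm gene brachyury. Muscle and blood markers had 0 of 24 transcripts listed.

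Endoderm markers had 1 of 6 listed transcripts past 2-fold lower, a2m.S, with 14.5 RPKM in Wnt8 caps, against 33.6 RPKM in control 3 and 6.19, 4.84 and 26.4 RPKM in controls 1, 2 and 4. Of 22 transcripts of early dorsal β-catenin targets 1 was listed, a NODAL model (Xelaev18018866m) with 2.03 RPKM in Wnt8 caps and no read in control 3. Of the organizer genes, 0 of 6 listed transcripts were past 2-fold higher and 2 lower, beside 0.986% and 1.76% of all. These were the OTX2 model given above and not.L, for a notochord homeobox factor, with 4.70 RPKM in Wnt8 caps, against 13.8 RPKM in control 3 and 14.4, 27.2 and 16.4 RPKM in controls 1, 2 and 4. The CHRD model (Xelaev18029538m) had 2.16 RPKM in Wnt8 caps and 0.136 RPKM in control 3, under the minimum of 5 RPKM.

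Lists of neighbouring pathways were short. Over all transcripts 0.986% were past 2-fold higher and 1.76% lower, so a count of 0 in a short list says little. FGF ligands, receptors and feedback genes had 0 of 18 listed transcripts past 2-fold in either direction and a median log2 ratio of 0.37. Only 11 of the 18 reached 5 RPKM. Nodal targets had 0 of 3, and 1 of them reached 5 RPKM. The retinoid list had 2 of 13 higher and 1 lower. The higher ones were dhrs3.L and a CRABP2 model, and the lower one rdh10.1, for a retinol dehydrogenase, with 14.9 RPKM in Wnt8 caps, against 78.5 RPKM in control 3 and 29.5 and 153 RPKM in controls 1 and 2. Immediate-early and stress genes had 0 of 17 higher and 1 lower, with a median log2 ratio of -0.53.

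The 2 homeologs of a gene tended to have ratios of the same sign. Over 3025 genes with both copies listed, Pearson's r between the log2 ratios of the copies was 0.621, given as a description, since both copies come from the same 2 libraries. Of 56 genes with at least 1 copy past 2-fold higher, 21 had both and 43 had the other copy above 0. Of 93 genes with a copy past 2-fold lower, 22 had both and 72 had the other copy below 0. The share of all copies above or below 0 was not taken, so the counts of partners above or below 0 have no background. With a median log2 ratio of 0.01 over all listed transcripts, many partners would lie on either side of 0 in any case. In 0 genes was a copy past 2-fold higher and its partner past 2-fold lower. Since the copies are alike in sequence and the sources used here do not say to which of them a shared read was counted, differences between copies are uncertain.

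Other libraries, which the Wnt8 ratio does not use, show where else these transcripts were high or low. Of the 149 higher transcripts with values in Xnr2 caps and control 4, 65.8% were past 2-fold higher in Xnr2 caps, beside 4.10% of all listed transcripts. Of the 263 lower transcripts with values 68.1% were past 2-fold lower there, beside 6.42% of all. Each share here and below counts only transcripts with values in both libraries. Xnr2 is a Nodal ligand and induces mesoderm and endoderm. In FGF8 caps against the same control, 45.1% of the 144 higher transcripts with values were past 2-fold higher, beside 1.39% of all. Of the 263 lower ones with values, 42.2% were past 2-fold lower, beside 1.73%. The Xnr2 and FGF8 comparisons share control 4, so they are not separate evidence.

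Against control 1 the picture differed by direction. In BMP4 caps 38.0% of the 129 higher transcripts with values were past 2-fold higher, beside 2.07% of all. Of the 243 lower ones with values, 5.35% were past 2-fold lower, beside 0.605%, and 17.7% past 2-fold higher. In Chordin caps 17.6% of the 119 higher transcripts with values were past 2-fold higher, beside 0.773% of all. Of the 228 lower ones with values, 16.7% were past 2-fold lower, beside 1.12%. Those 2 comparisons share control 1, in which much of the lower set was already low.

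Between dorsal and ventral embryo pieces, the higher set was spread to both sides. Of its 154 transcripts with values 14.3% were past 2-fold higher in dorsal pieces and 11.7% past 2-fold lower, beside 0.802% and 1.54% of all. The lower set was more often past 2-fold on the ventral side, with 31.5% of its 260 transcripts with values past 2-fold lower in dorsal pieces and 2.69% higher. sp5.L had 20.6 RPKM in the dorsal library and 54.5 RPKM in the ventral library, fzd10.L 31.1 RPKM in the dorsal and 72.6 RPKM in the ventral library, and szl.L 32.0 RPKM in the dorsal and 328 RPKM in the ventral library.

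Caps that received Wnt8 together with Xnr2 offer a second comparison with and without Wnt8 mRNA, but the ligand's own transcript was not higher there. wnt8a.L had 77.0 RPKM in the library labelled Wnt8 plus Xnr2 and 101 RPKM in Xnr2 caps, and wnt8a.S had 45.7 RPKM in the library labelled Wnt8 plus Xnr2 and 94.7 RPKM in Xnr2 caps. Endogenous wnt8a was already high after Xnr2, while Wnt8 caps at the same 16 pg dose had 12.9 RPKM of wnt8a.L. The injected mRNA could therefore not be checked, and these values speak neither for nor against the label. Of 146 transcripts of the higher set with values, 5 were past 2-fold higher in the library labelled Wnt8 plus Xnr2 against Xnr2 and 27 past 2-fold lower (18.5%), beside 1.70% and 0.798% of all. Of 262 transcripts of the lower set, 14 were past 2-fold higher and 16 lower.

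Some Wnt targets were lower there. Of 21 listed Wnt target transcripts with values, 6 were past 2-fold lower in the library labelled Wnt8 plus Xnr2 than in Xnr2 caps and 1 higher, with a median log2 ratio of -0.31, beside 0.07 over all. The higher one was sall1.S, with 71.7 RPKM in the library labelled Wnt8 plus Xnr2 and 31.4 RPKM in Xnr2 caps. axin2.L had 3.33 RPKM in the library labelled Wnt8 plus Xnr2, against 16.7 RPKM in Xnr2 caps and 0.0742 RPKM in control 4. sp5.L had 3.34 RPKM in the library labelled Wnt8 plus Xnr2, against 26.9 RPKM in Xnr2 caps and 0.477 RPKM in control 4. hoxd1.S had 36.4 RPKM in the library labelled Wnt8 plus Xnr2, against 116 RPKM in Xnr2 caps and 0.0696 RPKM in control 4. In each case Xnr2 caps alone were already far above control 4. The OTX2 model (Xelaev18039840m) stood the other way, with 7.66 RPKM in the library labelled Wnt8 plus Xnr2 and 1.15 RPKM in Xnr2 caps, and Bighead (LOC100494211.L) was higher in both comparisons, with 19.8 RPKM in the library labelled Wnt8 plus Xnr2 and 3.72 RPKM in Xnr2 caps. Other high transcripts were level, such as ror2.S, with 25.2 RPKM in the library labelled Wnt8 plus Xnr2 and 22.4 RPKM in Xnr2 caps.

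**Figure D5:**
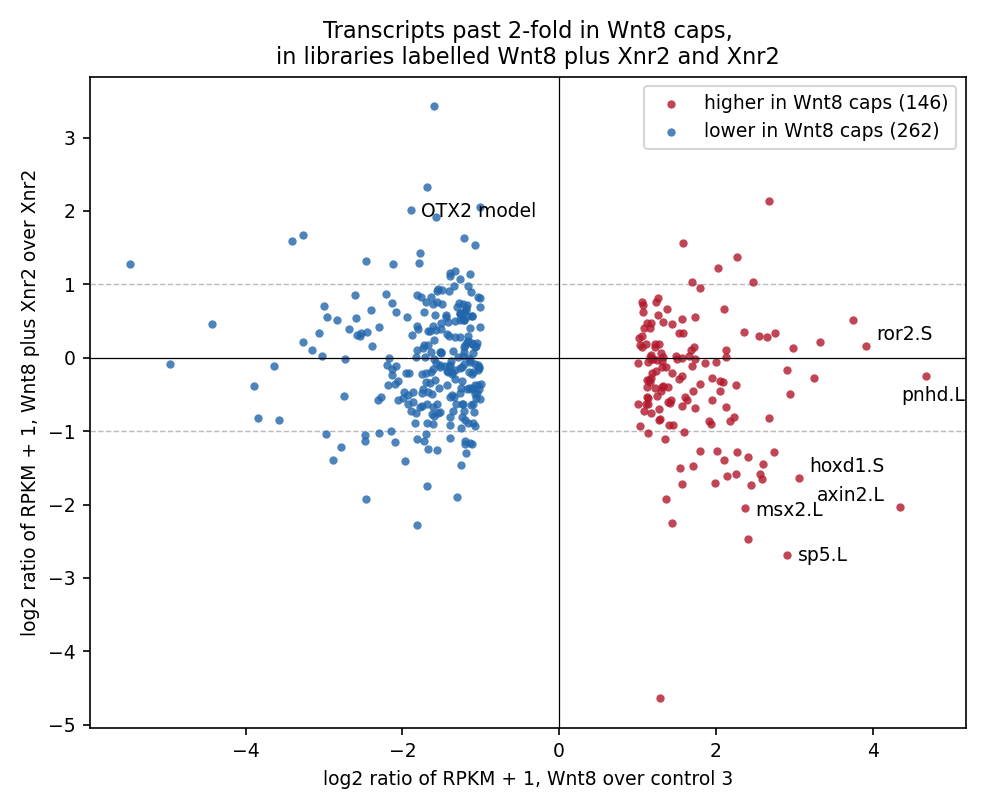
Log2 ratio of RPKM + 1 in the library labelled Wnt8 plus Xnr2 over Xnr2 (vertical axis) and in Wnt8 over control 3 (horizontal axis) for the transcripts past 2-fold between Wnt8 and control 3; red marks 146 transcripts higher and blue 262 lower in Wnt8 caps, dashed lines 2-fold. Of the red points 27 lie below the lower dashed line and 5 above the upper one at 5 RPKM or more, with axin2.L and sp5.L among the 27.

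Caps expressing Cerberus, an antagonist of Wnt, BMP and Nodal ligands, share control 3 with the Wnt8 caps, so values are only set side by side. fzd10.L had 32.1 RPKM in Wnt8 caps, 0.878 RPKM in Cerberus caps and 3.96 RPKM in control 3. ror2.L had 33.0 RPKM in Wnt8 caps, 21.9 RPKM in Cerberus caps and 2.39 RPKM in control 3. szl.L had 32.4 RPKM in Wnt8 caps, 8.21 RPKM in Cerberus caps and 230 RPKM in control 3. fzd10.L lay above control 3 in Wnt8 caps and below it in Cerberus caps, while ror2.L and szl.L lay on the same side of control 3 in both. In Chordin caps fzd10.L was also below its control, at 0.952 RPKM against 3.57 RPKM in control 1. Which of the blocked ligands matters for fzd10.L was not tested.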

How the data were processed

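Polyadenylated RNA of each sample was sequenced as single reads of 100 bases, per the labels' protocols. The deposited values are RPKM, which the authors computed per transcript on genome build JGI9.1 (per the file headers). The submitters' processing notes name TopHat2 2.09 and DESeq, with no roles, and the counting rule is not given in the sources used here. The authors' fold changes, log values and p-values were not used. The list for Wnt8 caps holds only transcripts whose pair averaged 1 RPKM or more.

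Log2 ratios used a pseudocount of 1 RPKM. A transcript was called past 2-fold where the higher library had 5 RPKM or more, without a test. The limma 3.58.1 fit (R 4.3.3, mean-variance trend) compared Wnt8 with controls 1 to 4, with dissociated 1 to 3 as a further group for the spread, and Benjamini-Hochberg adjustment over 15824 transcripts. The fit was also run on simulated data without differences between control sets, which the real controls have. That run therefore cannot show how the fit handles these libraries. Control 4 has values under the same name for 14156 of the 15824 transcripts.

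RPKM values could be turned back into whole reads, to within 0.01 reads, for 30589 of the 30590 transcripts that had 3 or more nonzero values. They gave depths and 95% exact binomial intervals of ratios, which cover counting error only.

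The numbers pair dissociated caps with controls, as the labels state. Deviations of same-numbered libraries from their group means correlated at 0.591, 0.395 and 0.619, others at -0.484 to 0.147.

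The members and the 22 gene lists were chosen with earlier results of these data known. Named transcripts are wnt8a, the 12 with the highest and the 12 with the lowest ratio beyond every control, all Wnt targets, up to 4 per other list by size of ratio, and those called by limma. Results of some transcripts the rule names are not reported here. Further list members are named after their values were seen. Alternatives tried were other pseudocounts, scalings, minima, controls, left-out libraries, a block for the control set, voom and summed copies. No promoter sequence was used.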

Additional observations from a re-analysis of the deposited data

Results flagged for a closer look

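The difference of a transcript's ratio with and without Xnr2 was not tested, since each library is single. These 16 named transcripts differed by at least 2-fold on the log2(RPKM + 1) scale, in opposite directions, in the 2 comparisons, here without the minimum of 5 RPKM. Higher in Wnt8 caps than in control 3 but lower in the library labelled Wnt8 plus Xnr2 than in Xnr2 caps were axin2.L (log2 ratio of RPKM + 1 in the second comparison -2.03), sp5.L (-2.69), sp5.S (-1.75), fzd10.L (-1.28), fzd10.S (-1.92), the GBX2 model Xelaev18044833m (-2.47), hoxd1.L (-1.45), hoxd1.S (-1.64), evx1.L (-1.61), cdx4.S (-1.35), msx2.L (-2.04), msx2.S (-1.58) and zic1.S (-1.29). Lower in Wnt8 caps but higher in the library labelled Wnt8 plus Xnr2 were the TBC1D24 model LOC100493941-like.L (1.28), the OTX2 model Xelaev18039840m (2.01) and the UBP1 model Xelaev18043178m (1.68).

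A control library stood far from the other 3 for 6 of 92 named transcripts reported here with values in every control and for 1 of 20 lists, where chance flags about 1 in 20. Control 1 was the low one for LOC100497331-like.L (10.7 RPKM), lef1.L (2.19 RPKM), nkd1.L (0.543 RPKM), szl.S (19.4 RPKM) and Xelaev18043178m (4.09 RPKM), and the high one for the retinoid list (mean log2(RPKM + 1) of 3.57). Control 2 was the low one for aplnr.L (2.77 RPKM).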

How the results depend on the processing

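The count of transcripts past 2-fold higher, 156 against control 3, was 802 against control 1, 1006 against control 2, 536 against control 4, 313 against the mean of all controls, 332 against that of controls 2 to 4 (chosen after seeing the data), 89 with a pseudocount of 5, 50 at 4-fold and 40 with a minimum of 20 RPKM. The count lower, 278, was 967, 709 and 597 against controls 1, 2 and 4, 151 with a pseudocount of 5, 57 at 4-fold and 121 with a minimum of 20 RPKM. The causes of these differences between controls were not tested. Limma's 11 higher calls were 0 with a pseudocount of 0.1, 29 with 5, 0 with a mean of at least 5 RPKM, 0 with the control set as a replicate block, 3 with voom and 5 with controls and Wnt8 alone. Leaving out 1 library gave 1 to 15 higher and 0 to 13 lower. The median of the posterior list, 2.10, was 2.89 and 1.07 with pseudocounts of 0.1 and 5, 2.57 and 2.69 against controls 2 and 4, and 2.49 against the mean of controls 2 to 4. That of the Wnt targets, 0.93, was 1.09, 0.53, 1.38, 1.28 and 1.15 under the same settings and 1.08 against the mean of all controls. That of multiciliated cells and ionocytes, -1.50, was 0.53 and -2.42 against controls 1 and 2, -0.83 against the mean of all controls and -0.96 with a pseudocount of 5. Log2 ratios of single transcripts turned in sign against control 1 for LOC100145611.L (0.12), LOC549413.L (3.38), LOC549413.S (3.25), Xelaev18043178m (0.98), Xelaev18044942m (-0.58), Xelaev18047022m (0.73), a2m.S (1.11), agr2.S (1.09), dhrs3.L (-0.46), krt12.L (1.34), krt12.S (1.55), sfrp2.L (-1.49), szl.S (0.082), zic1.L (-0.0065) and zic1.S (-0.55). Against control 2 they turned for a2m.S (1.41) and gadd45g.S (0.23), and against the mean of all controls for a2m.S (0.13). Depth limits transcripts near 0 in control 3, such as Xelaev18027783m, whose ratio interval ran from 88.1 to 1257.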
